A study of Mus musculus with 6 samples.

Results

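Sertoli cells line the testis cords and secrete or assemble many of the proteins that surround the germ cells. The report covers 31 genes for such products: hormone and growth factor receptors, carrier proteins, protease inhibitors, defensins, matrix and signalling proteins, enzymes, intermediate filaments and tubulin, and a few testis-restricted genes. They were chosen by gene symbol as Sertoli products other than transcription factors and niche ligands, and all 31 were found among the 22320 genes of the authors' table. Gata1, Rhox5 and Rhox8 are on the list although they encode transcription factors.

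RNA came from whole testes at postnatal day 1.5 of mice with a hybrid C57BL6/J and 129/SvEv background. Arid4bSCKO mice had the genotype Arid4b-/Flox with Amh-cre, and control mice had Arid4b+/Flox with Amh-cre. Both groups thus carried a floxed allele and the Cre transgene, whose Amh promoter is active in Sertoli cells, and the null allele of the Arid4bSCKO mice was present in every cell type. Each of the 2 groups had 3 pools of 4 testes.

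Sertoli cells of the newborn testis still divide, and follicle-stimulating hormone acting on its receptor is one of the signals that drives them. Vimentin filaments run inside them, as keratin filaments do in fetal Sertoli cells. Sertoli cells release clusterin, cystatins, transferrin and prostaglandin D synthase into the cord. Some of these genes switch on in the fetal gonad soon after Sry and Sox9, whereas others, among them Gata1 and Rhox5, are known as genes of the later postnatal testis.

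The values are the authors' mean of log2(normalized count + 1) over the 3 libraries of a group, called the level below; values of single pools were not analysed here, so whether the groups overlap cannot be read. Genes read in a single library place the depth at about 16.2 to 18.4 M reads per Arid4bSCKO library and 18.2 to 19.02 M per control library. Arid4b itself had a level of 8.68 in Arid4bSCKO and 10.19 in control, or 35.1% of control (difference -1.51, adjusted p = 2.23e-05 in the moderated limma test; its FDR in the authors' deposited table was 0.0535). A gene is said to have risen, fallen or been called when its adjusted p was below 0.05 in a limma test that moderates the spread implied by the deposited p-values. Of 19095 genes tested, 13.8% were called, and the median difference over all of them was -0.04. Intervals are 95% intervals from that test. In whole testis, fewer Sertoli cells and less RNA per Sertoli cell cannot be told apart.

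The Sertoli products moved in both directions. Of the 31 genes, 9 fell, against 6.46% of all genes tested, and 7 rose, against 7.37% of all genes tested. The other 15 were not called. The median difference over the 31 was -0.46, and 21 differences were negative, as were 10346 of the 19095 genes tested. The genes that fell were Clu, Ptgds, Adamts16, Vnn1, Gatm, Rhox8, Mro, Mmd2 and Gata1. Those that rose were Serpine2, Defb36, Ptgr1, Krt8, Krt18, Vim and Tubb3. All differences lay between -1.98 for Rhox8 and 1.17 for Tubb3.

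These calls rest on how the spread was estimated. In the authors' deposited table, Serpine2 and Defb36 passed the FDR of 0.05 (2 higher, against 0.139% of all genes) and 0 members passed as lower, against 0.121%. At an unadjusted p below 0.05 in that deposited table of the authors, 11 were lower and 7 higher, against 11.1% and 9.86% of all genes. When the moderated limma test was run without its trend of spread on level, 0 members were called lower (0.189% of all genes) and 2 higher (0.518%), again Serpine2 and Defb36. The counts were the same without the trend and without robust fitting (0.382% of all genes lower, 0.859% higher). With the trend kept and robust fitting dropped, 14 were called lower (6.49%) and 8 higher (7.4%).

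**Figure D1:**
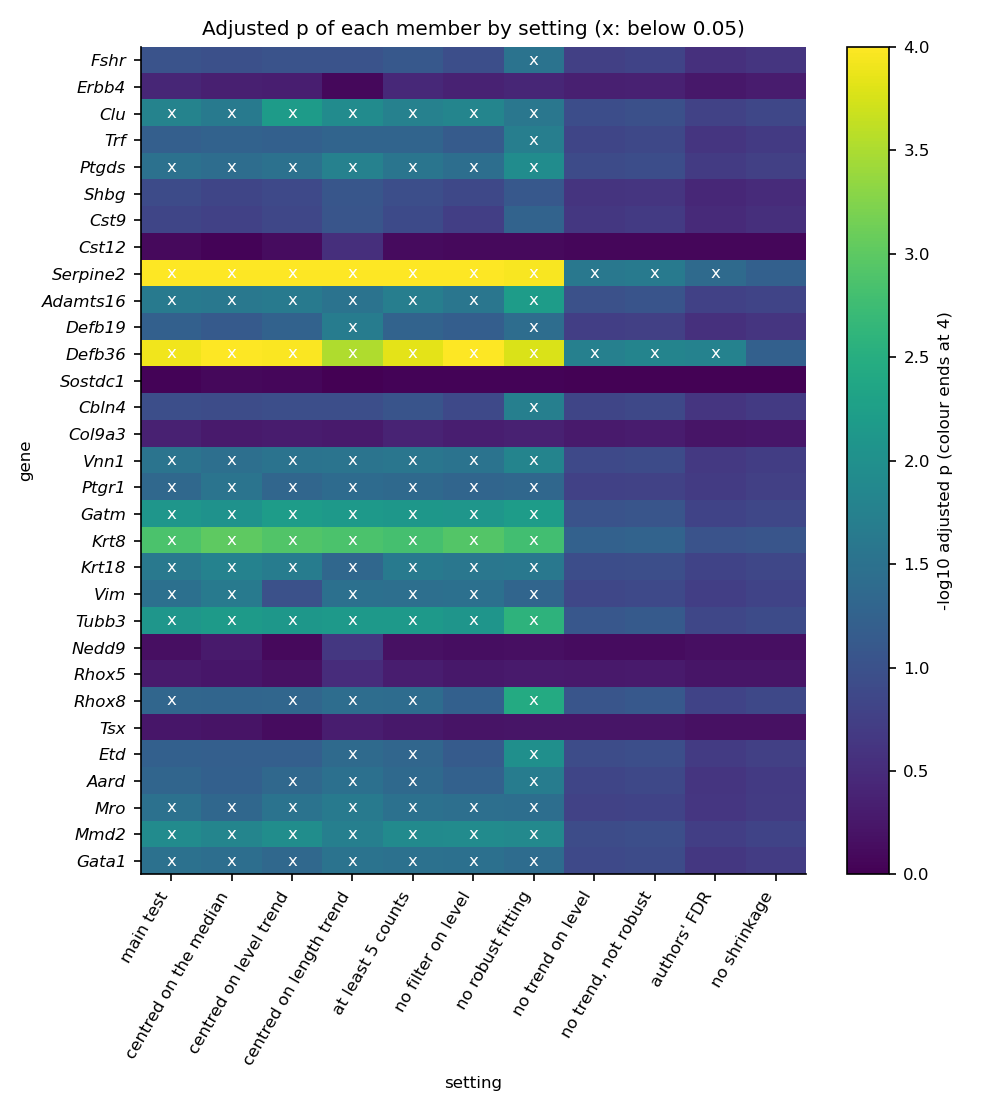
Adjusted p of each member (rows) under each setting of the test (columns), coloured as -log10 of the adjusted p, with a white x where it was below 0.05. Serpine2 and Defb36 carry an x in every column except the one with no shrinkage; the other called genes carry none in the 4 columns at the right.

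**Figure D2:**
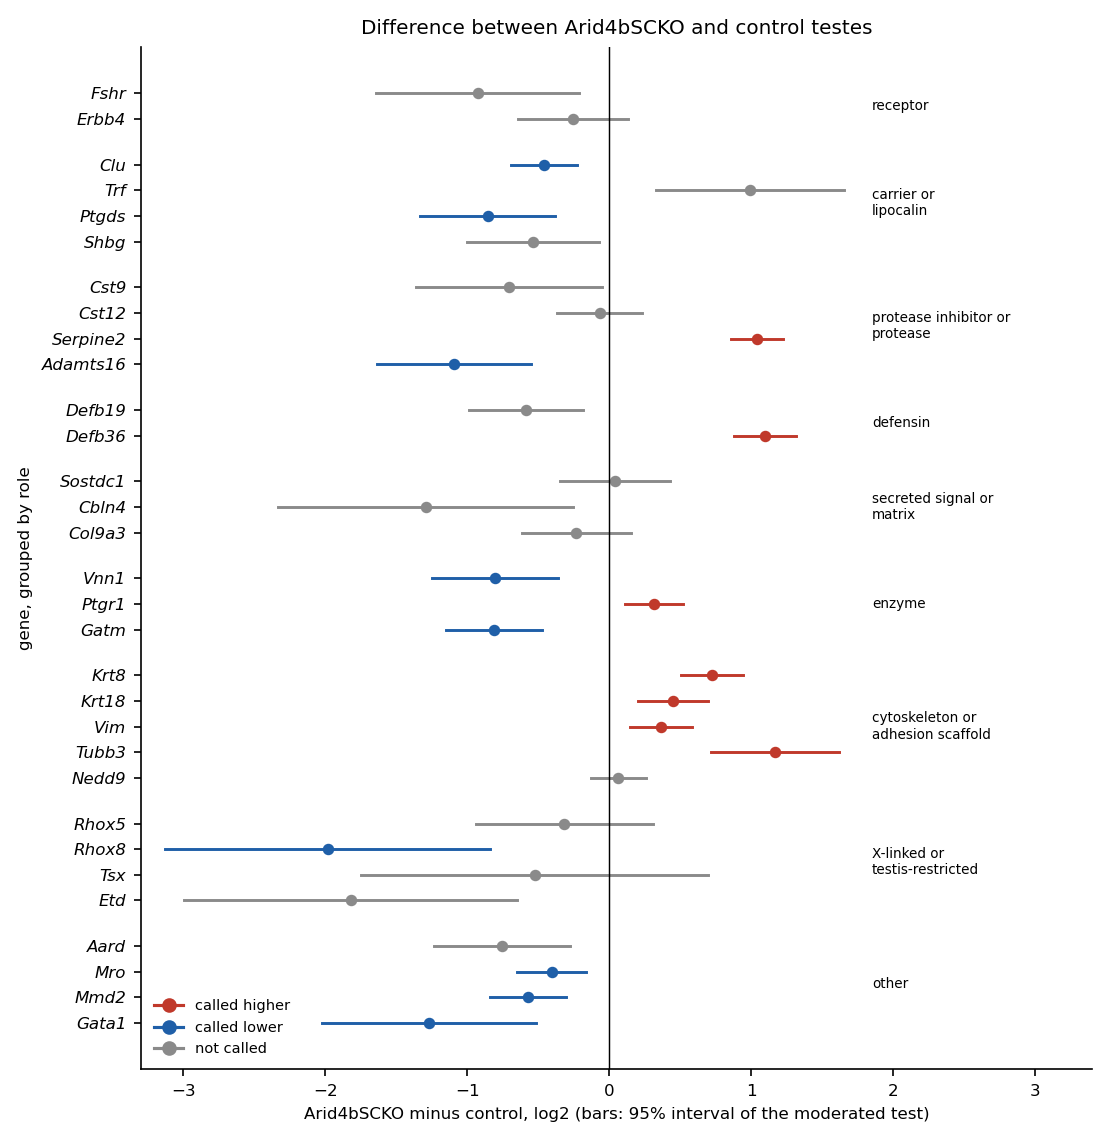
Difference of each of the 31 genes, Arid4bSCKO minus control, on the log2 scale, grouped by role. Points are differences of the group means and bars are 95% intervals of the moderated test; red genes were called higher, blue lower and grey not called. The cytoskeletal genes sit right of 0 and the X-linked and testis-restricted genes left of it.

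The receptors were not called. Fshr, the receptor for follicle-stimulating hormone, had a level of 9.24 in Arid4bSCKO and 10.17 in control, a difference of -0.93 (95% interval -1.64 to -0.21) with an adjusted p of 0.0937 in the moderated limma test. It was called only when robust fitting was dropped (adjusted p = 0.0294). Erbb4, a receptor for neuregulins, stood at 7.56 in Arid4bSCKO and 7.82 in control (-0.26, interval -0.64 to 0.13). Of 12 measured genes listed for the FSH pathway, 1 fell and 0 rose, a share near the 6.46% of all genes that fell. The median difference of the 12 was -0.17. They include Lhcgr, which is also counted among the Leydig cell markers below. The gene that fell was Prkaca, a catalytic subunit of protein kinase A, at -0.43 (-0.67 to -0.19). Prkaca was not called without the trend of spread on level (adjusted p = 0.144, moderated limma). Gnas, the stimulatory G protein gene, was at 0.07 (-0.13 to 0.27).

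Among the carriers, clusterin and prostaglandin D synthase fell. Clu, a secreted chaperone, had the highest level of the 31 genes in control and stood at 14.82 in Arid4bSCKO against 15.28 in control, or 72.7% of control (difference -0.46, interval -0.69 to -0.23, adjusted p = 0.0164, moderated limma). Ptgds, the lipocalin-type prostaglandin D synthase, was at 11.14 in Arid4bSCKO and 11.99 in control, or 55.2% of control (-0.86, -1.34 to -0.38, adjusted p = 0.0324). Shbg, which encodes androgen-binding protein, was not called; it stood at 10.11 in Arid4bSCKO and 10.65 in control (-0.54, -1.003 to -0.07). Trf, transferrin, lay in the opposite direction at 9.95 in Arid4bSCKO and 8.96 in control, a difference of 0.99 (0.33 to 1.65) with an adjusted p of 0.0613. Trf was called only when robust fitting was dropped (adjusted p = 0.0198, moderated limma). Its ratio of group medians in the authors' deposited table was smaller, at 0.69. Exons of Trf overlap those of another annotated gene on the same strand, and how the authors assigned shared reads is not stated.

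The protease inhibitors did not move as one. Serpine2, a secreted serine protease inhibitor also known as protease nexin 1 (chromosome 1, 79794197 to 79861180, minus strand, mm10), rose to a level of 14.04 in Arid4bSCKO against 12.998 in control. That is 206% of control, a difference of 1.04 (0.86 to 1.22), with an adjusted p of 5.95e-05 in the moderated limma test and a deposited FDR of 0.0415 (the authors' deposited table). The cystatin members were not called. Cst9, also called testatin, was at 11.91 in Arid4bSCKO and 12.62 in control (-0.71, -1.36 to -0.05, adjusted p = 0.147). Cst12, which lies 41.6 kb from Cst9 on chromosome 2 and on the same strand, was at 12.22 in Arid4bSCKO and 12.29 in control (-0.07, -0.37 to 0.23). The interval of Cst12 excludes a fall of the size that Gatm or Ptgds showed at their mean. Adamts16, a secreted metalloproteinase gene, fell to 46.9% of control, with 959 normalized counts in Arid4bSCKO and 2048 in control on the linear scale (-1.09, -1.64 to -0.55, adjusted p = 0.0228).

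The defensin pair pointed opposite ways. Defb36 (chromosome 2, 152604327 to 152612729, plus strand) encodes a beta-defensin, a small cationic peptide. It rose to a level of 9.48 in Arid4bSCKO against 8.38 in control, or 214% of control (1.10, 0.88 to 1.32, adjusted p = 1.20e-04, moderated limma), and its FDR in the authors' deposited table was 0.0171. Defb19 lies 24.01 kb away on the opposite strand. It was at 11.77 in Arid4bSCKO and 12.35 in control, a difference of -0.59 (-0.99 to -0.19) that was not called (adjusted p = 0.0597). Defb19 passed after centring on a length trend (-0.77, adjusted p = 0.0211) and when robust fitting was dropped (adjusted p = 0.0370, moderated limma). The intervals of the neighbours do not overlap; the difference between them was not itself tested.

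The promoters of Serpine2 and Defb36, the members that also passed the authors' FDR, and of the keratin pair described next are shown for context. Each sequence is the 250 bases before the gene's start in RefSeq, read on the strand of the gene, on GRCm38.p6; capitals mark a GATA-type match (AGATAA) and nothing else is capitalised. The gene spans given here are from GENCODE, which starts Serpine2, Krt8 and Krt18 further upstream than RefSeq does, so the Serpine2 stretch lies inside the GENCODE span and the keratin stretches overlap theirs. Serpine2 is at chr1:79858666-79858915 (minus strand), Defb36 at chr2:152604077-152604326 (plus strand), Krt8 at chr15:102004343-102004592 (minus strand) and Krt18 at chr15:102027966-102028215 (plus strand).
Serpine2: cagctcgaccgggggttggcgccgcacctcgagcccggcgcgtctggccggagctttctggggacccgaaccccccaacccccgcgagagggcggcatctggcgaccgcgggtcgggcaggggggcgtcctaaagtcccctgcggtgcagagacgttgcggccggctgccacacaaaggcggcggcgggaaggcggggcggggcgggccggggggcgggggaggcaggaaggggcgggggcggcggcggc
Defb36: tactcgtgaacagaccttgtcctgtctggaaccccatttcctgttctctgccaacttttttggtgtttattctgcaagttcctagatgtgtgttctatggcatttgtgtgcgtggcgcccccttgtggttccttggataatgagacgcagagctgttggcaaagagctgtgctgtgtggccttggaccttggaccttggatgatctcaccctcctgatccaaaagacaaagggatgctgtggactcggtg
Krt8: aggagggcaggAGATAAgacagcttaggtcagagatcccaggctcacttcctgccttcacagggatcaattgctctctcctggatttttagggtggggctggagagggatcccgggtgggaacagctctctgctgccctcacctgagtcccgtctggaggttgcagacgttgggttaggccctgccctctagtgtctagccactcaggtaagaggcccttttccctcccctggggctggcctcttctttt
Krt18: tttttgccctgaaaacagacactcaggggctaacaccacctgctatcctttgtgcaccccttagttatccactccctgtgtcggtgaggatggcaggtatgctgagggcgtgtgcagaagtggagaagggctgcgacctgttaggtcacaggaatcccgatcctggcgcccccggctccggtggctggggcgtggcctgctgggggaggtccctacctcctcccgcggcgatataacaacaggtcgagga
The Serpine2 stretch is 78.8% G and C and the Defb36 stretch 50.4%, where the median of 32851 RefSeq promoters is 52.4%. Krt8 and Krt18 are at 58.0% and 60.4%.

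RefSeq promoters, from 250 bases before to 50 after the start, were at hand for 21 of the 31 genes. Short motifs of known Sertoli regulators were counted on both strands. The SOX-type motif AACAAT was found in 3 of the 21 (Erbb4, Cbln4 and Rhox5), or 14.3%, against 10.7% of all promoters. The GATA-type motif AGATAA was found in Shbg and Krt8, or 9.52%, against 11.2% of all. The SF1-type motif AAGGTCA and the palindromic cAMP response element were found in 0 of the 21, against 4.72% and 1.79% of all. No matches overlapped. Promoters were at hand for 4 genes that fell and 7 that rose; of these, 0 held a SOX-type match in the window and Krt8 alone held a GATA-type one.

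All 5 structural genes had positive differences, as had 8749 of the 19095 genes tested, and 4 rose, against 7.37% of all genes. Krt8 and Krt18, which pair to form the keratin filaments of simple epithelia and of fetal Sertoli cells, lie 23.7 kb apart on chromosome 15 on opposite strands. Krt8 was at 10.48 in Arid4bSCKO and 9.76 in control, or 165% of control (0.72, 0.50 to 0.94, adjusted p = 0.00135, moderated limma). Krt18 was at 9.51 in Arid4bSCKO and 9.06 in control, or 137% of control (0.45, 0.20 to 0.70, adjusted p = 0.0238). Vim, the vimentin gene, which most mesenchymal cells also express, was at 15.04 in Arid4bSCKO and 14.67 in control, or 129% of control (0.36, 0.14 to 0.58). It was not called once a trend of difference over level was removed (adjusted p = 0.103). Exons of Krt8 and Nedd9 overlap those of annotated genes on the opposite strand; the libraries were stranded, but whether the counting used strand is not stated.

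Tubb3, the class III beta-tubulin gene known mainly from neurons (chromosome 8, 123411424 to 123422015, plus strand), had the largest positive difference of the 31. Its level was 11.37 in Arid4bSCKO and 10.20 in control, or 225% of control (1.17, 0.72 to 1.62, adjusted p = 0.00788, moderated limma). The ratio of medians in the authors' deposited table was 1.44. Nedd9, a docking protein of focal adhesions, was at 12.36 in Arid4bSCKO and 12.30 in control (0.06, -0.13 to 0.26) and was not called.

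Markers of other cells that make these filaments were read beside them. Of 5 mesonephric and epithelial markers 0 were called in the moderated limma test, and at an unadjusted p below 0.05 in the authors' deposited table there was 1. Their summed level, on the linear scale, was 1241 normalized counts in Arid4bSCKO and 1121 in control. Epcam, an adhesion molecule of epithelia, was at 0.35 (0.09 to 0.61) and Krt19, another keratin of simple epithelia, at 0.41 (-0.01 to 0.83). The other 3 differences were negative, at -0.56 for Pax8, -0.56 for Pax2 and -0.19 for Cdh1. The median of the 5 was -0.19, and none was at 0. Macrophages also express Vim, and their markers rose in 9 of 9, against 7.37% of all genes (Csf1r by 0.71, 0.37 to 1.05, and C1qa by 1.20, 0.90 to 1.49), with summed levels of 4202 in Arid4bSCKO and 2252 in control. Of the 9, 0 passed the FDR in the authors' deposited table, and without the trend of spread on level C1qa alone was called (adjusted p = 0.0462, moderated limma). Peritubular myoid markers were positive in 6 of 6 with 1 called higher (Tagln, 0.67, 0.49 to 0.84), against 7.37% of all genes. The myoid markers summed to 26089 in Arid4bSCKO and 21529 in control. The part of these cells in the structural genes was not tested.

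The enzymes were all called, against 13.8% of all genes tested. Gatm, which makes guanidinoacetate for creatine synthesis (chromosome 2, 122594467 to 122611303, minus strand), fell to 56.9% of control, at 12.75 in Arid4bSCKO and 13.56 in control (-0.81, -1.15 to -0.48, adjusted p = 0.00782, moderated limma). Vnn1, a membrane-anchored pantetheinase, fell to 57.3% of control, at 9.65 in Arid4bSCKO and 10.45 in control (-0.80, -1.25 to -0.36, adjusted p = 0.0290). Ptgr1, prostaglandin reductase 1, rose slightly to 124% of control, at 11.88 in Arid4bSCKO and 11.57 in control (0.31, 0.11 to 0.52, adjusted p = 0.0448).

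The secreted signal and matrix genes were not called. Cbln4, a secreted member of the cerebellin family, was at 8.97 in Arid4bSCKO and 10.26 in control, or 40.8% of control. The interval of its difference of -1.29 was wide (-2.34 to -0.25) and its adjusted p was 0.108 in the moderated limma test, and it was 0.0187 when robust fitting was dropped. Sostdc1, a secreted antagonist of BMP and Wnt signals, was at 8.55 in Arid4bSCKO and 8.51 in control (0.04, -0.35 to 0.43). Col9a3, a collagen IX chain gene whose exons overlap a gene on the opposite strand, was at 7.90 in Arid4bSCKO and 8.14 in control (-0.23, -0.62 to 0.15).

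The 2 largest negative differences belonged to genes on the X chromosome. Rhox8, a homeobox gene of Sertoli cells (X chromosome, 37874778 to 37878944, minus strand), fell to 25.3% of control, at 8.61 in Arid4bSCKO and 10.60 in control (-1.98, -3.13 to -0.84, adjusted p = 0.0474, moderated limma). The call was lost when differences were centred on the median of all genes (adjusted p = 0.0501) and with no filter on level (0.0594). Etd, an embryonic testis differentiation transcript, was at 7.25 in Arid4bSCKO and 9.08 in control, or 28.3% of control. With an interval of -2.99 to -0.65 and an adjusted p of 0.0590 it was not called. Etd passed in 3 of the 9 other settings of the test, among them the one with the length trend removed (adjusted p = 0.0407).

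Rhox5, a homeobox gene 65.9 kb from Rhox8, was at 5.54 in Arid4bSCKO and 5.85 in control (-0.32, -0.94 to 0.31). Tsx, a testis-specific X-linked gene, was read from few molecules, at 6.63 normalized counts in Arid4bSCKO and 9.999 in control, and its interval ran from -1.75 to 0.69. Exons of Tsx overlap those of another gene on the same strand. Gata1, the other X-linked member, fell at a low level: it was at 4.804 in Arid4bSCKO and 6.07 in control, or 41.5% of control (-1.27, -2.02 to -0.51, adjusted p = 0.0320). Gata1 is also an erythroid factor. Of 8 erythroid markers 0 were called and 0 had a deposited p below 0.05. They summed to 54399 normalized counts in Arid4bSCKO and 35725 in control. The globin gene Hbb-bs was at 0.69 (-0.52 to 1.91), and none of the 8 markers was at 0. Their part in the value of Gata1 was not tested. Of the 5 X-linked members 2 were called lower and all 5 differences were negative, whereas of 759 tested genes on the X chromosome 78 fell and 25 rose, and their median difference was -0.10.

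The remaining genes are known as early markers of the XY gonad. Aard, a gene for a small protein rich in alanine and arginine, was at 12.31 in Arid4bSCKO and 13.06 in control, or 59.3% of control, just outside the threshold (-0.75, -1.23 to -0.27, adjusted p = 0.0503, moderated limma). Aard passed in 4 of the 9 other settings of that test. Mro, also known as maestro, fell to 75.4% of control, at 11.63 in Arid4bSCKO and 12.03 in control (-0.41, -0.65 to -0.16, adjusted p = 0.0327). Mmd2, which encodes a membrane protein of the progestin and adipoQ receptor family, fell to 67.2% of control, at 11.60 in Arid4bSCKO and 12.17 in control (-0.57, -0.84 to -0.30, adjusted p = 0.0119).

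**Figure D3:**
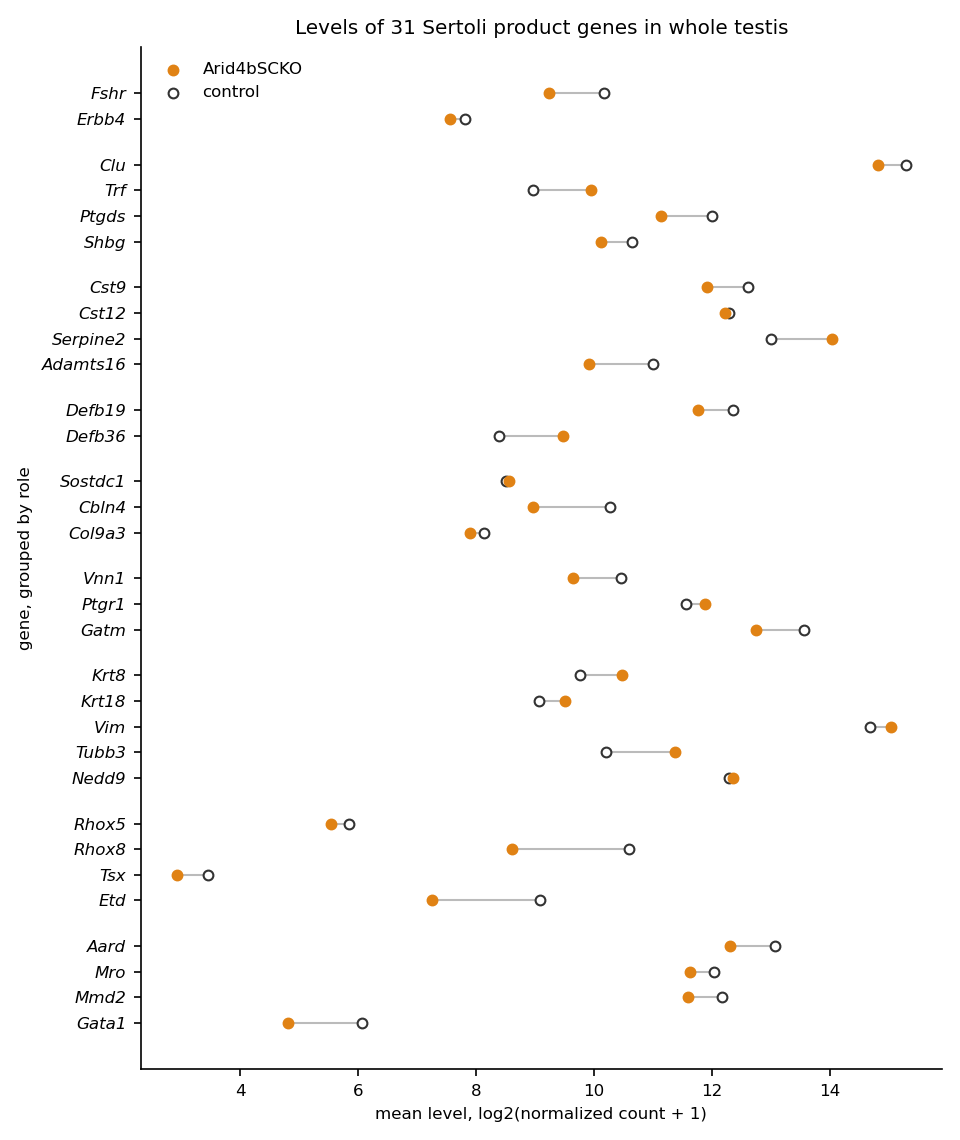
Level of each gene in Arid4bSCKO (filled orange) and control (open), as the authors' group means of log2(normalized count + 1), grouped by role. No error is drawn because values per pool were not analysed; levels run from 2.93 for Tsx in Arid4bSCKO to 15.28 for Clu in control.

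The levels can be ordered between genes only per length of transcript. Per kilobase, on the linear scale, Clu ranked first in both groups, at 16016 normalized counts per kb in Arid4bSCKO and 22030 in control. In control Defb19 (13286), Vim (11913), Cst9 (9154) and Cst12 (9148) followed. In Arid4bSCKO the order below Clu was Vim (15334), Defb19 (8848), Cst12 (8720) and Serpine2 (7605). Serpine2 was at 3700 normalized counts per kb in control, below Aard, Gatm and Ptgds. At the low end were Gata1 at 14.2 in Arid4bSCKO and 34.9 in control, Erbb4 at 15.6 in Arid4bSCKO and 18.7 in control, and Tsx at 8.17 in Arid4bSCKO and 12.3 in control. Errors of levels within a group cannot be given, so neighbours in this order are not said to differ.

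The spread between pools was wide for many of these genes. For the 27 members at levels from 8.02 to 15.05, the median SD implied by the deposited p was 0.292 log2 units, against 0.120 for the 10241 tested genes in that range. Members that rose had a median SD of 0.128 and those that fell 0.326. Defb36 and Serpine2 were among the tightest, at 0.0569 and 0.0808, and Rhox8 and Etd were wide, at 0.620 and 0.704. Moderation pulls a wide gene towards its peers. The moderated standard error was therefore below the one behind the deposited p in 28 of the 31 members and 14 of the 16 called ones, where this held for 46.0% of all genes tested.

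**Figure D4:**
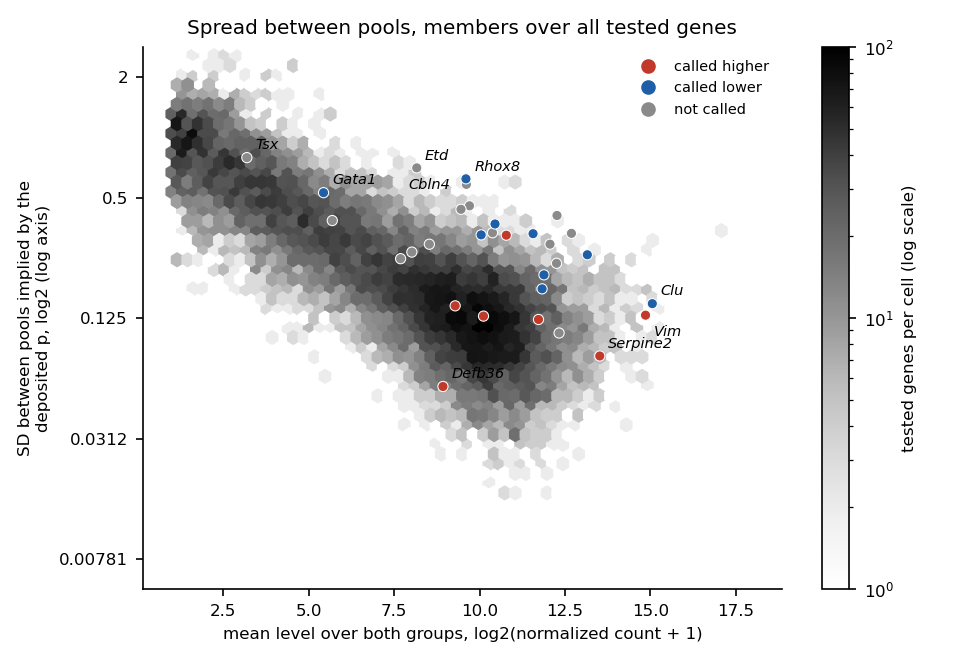
SD between pools that the deposited p implies (log axis) against the mean level over both groups, with the 31 members over all tested genes (grey cells, darker for more genes). Defb36 lies low at 0.0569 and Etd high at 0.704; most members that fell lie in the upper part of the cloud.

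Where pools of a group were uneven, the mean and the median of the group part. The ratio of medians in the authors' deposited table had the sign of the mean difference for 30 of 31 members and differed from it by more than 0.3 log2 units for 4. These were Tsx (0.08 by medians, -0.53 by means), Etd (-2.37 and -1.82), Cbln4 (-1.64 and -1.29) and Rhox8 (-2.32 and -1.98). For Etd, Cbln4 and Rhox8 the medians lay further apart than the means. None of the 16 called genes changed sign (0). Each had a deposited p below 0.05, so its mean difference was large beside its spread between pools. With so few pools, the ratio of medians can hardly part from the mean difference by that much. The count therefore says little about stability.

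The Sertoli transcription factors and signals, a separate list of 23 genes, had 11 that fell, against 6.46% of all genes, and 1 that rose, the junction gene Cldn11 (0.95, 0.59 to 1.31). Of the 23, 0 passed the FDR in the authors' deposited table, while the unadjusted p was below 0.05 for 12 negative differences and 1 positive one. Without the trend of spread on level none of them was called, the lowest adjusted p being that of Nr5a1 (0.0750, moderated limma). Over that list 20 differences were negative, where 10346 of the 19095 genes tested were, and the list median was -0.49. Sox9, which directs Sertoli fate, was at 10.81 in Arid4bSCKO and 10.67 in control (0.15, -0.15 to 0.45). Amh, the hormone that makes the female ducts regress, was at 12.63 in Arid4bSCKO and 14.25 in control (-1.62, -2.93 to -0.32), and neither was called. Kitl and Nr5a1 had the smallest p-values of that list, at -0.81 (-1.09 to -0.54) and -0.53 (-0.73 to -0.34). Sox9 and Amh, as defining markers of Sertoli cells, were far above 0 in both groups. No difference between the product list and the factor list was tested.

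Of the other cell types, germ cell markers had 1 of 10 that fell (Dppa4, -0.86, -1.32 to -0.39) and 0 that rose, against 6.46% and 7.37% of all genes. The germ cell markers summed to 7328 normalized counts in Arid4bSCKO and 9497 in control. Fetal Leydig cell markers had 0 of 7 called and summed to 43949 normalized counts in Arid4bSCKO and 44806 in control. Of 6 stromal markers Lum rose (0.37, 0.13 to 0.61) and Nr2f2 fell (-0.38, -0.60 to -0.15), against 7.37% and 6.46% of all genes. Of the rest, endothelial markers had 0 of 6 called and granulosa markers 0 of 4. At an unadjusted p below 0.05 in the authors' deposited table there were 0 Leydig, 0 endothelial and 0 granulosa genes. Dppa4, Lum, Nr2f2 and the myoid gene Tagln were not called without the trend of spread on level (adjusted p = 0.133, 0.176, 0.159 and 0.0503, moderated limma). No marker of these lists was at 0 in both groups.

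**Figure D5:**
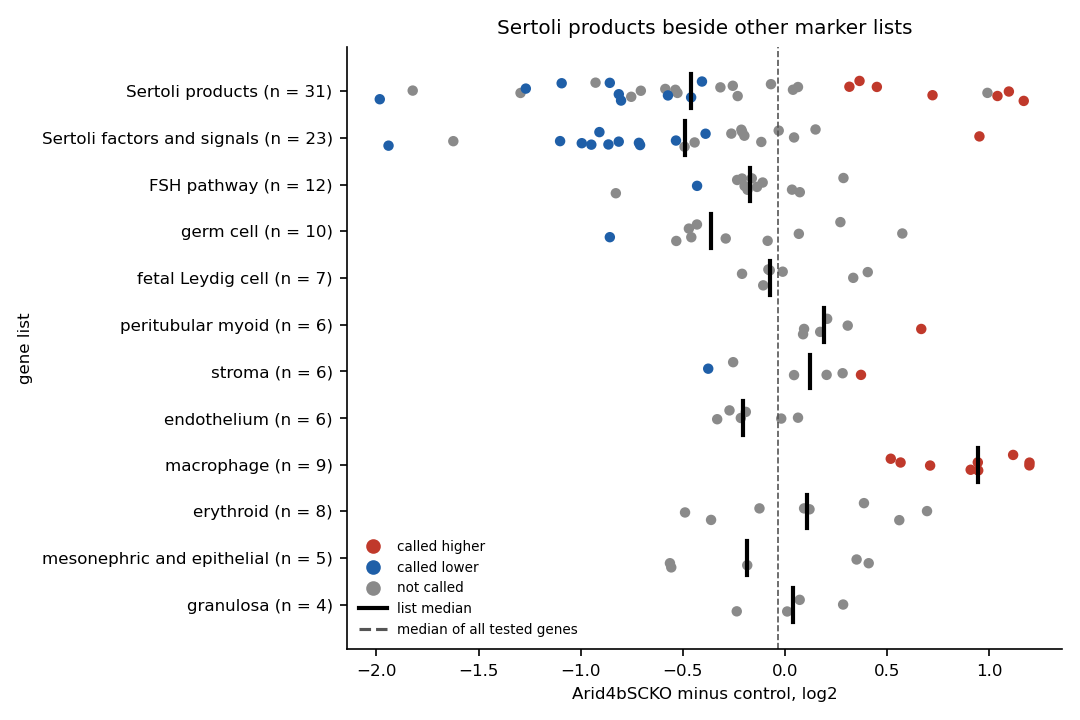
Difference of every gene of each list, Arid4bSCKO minus control on the log2 scale, with the list median as a black bar and the median of all tested genes as a dashed line. The Sertoli products spread from -1.98 to 1.17 around a median of -0.46, the Sertoli factors and signals lie mostly below 0, and all 9 macrophage markers lie above it.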

How the data were processed

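Stranded mRNA libraries were read, per the labels, and aligned to mm10 with STAR 2.4, per the submitters' processing notes; tools and settings for counting and normalization are not stated. Per the file headers and the column descriptions, the deposited table holds the authors' mean log2 normalized count of each group, a log2 ratio of medians, a raw p-value (variance taken as equal) and an FDR. The lowest value is 0, from which a pseudocount of 1 was inferred; folds on this scale understate changes of low genes.

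Standard errors were recovered from each deposited p-value and mean difference (4 residual degrees of freedom), on the assumption that the authors compared log2 values. Variances of 19095 genes at a mean level of at least 1 were then shrunk in limma 3.58.1 (R 4.3.3; squeezeVar, robust, prior variance following the level; median prior degrees of freedom 7.46), with Benjamini-Hochberg adjustment across these genes. Left out were 529 rows with a filled-in value. Whether pools represent separate litters is not stated, so a p-value covers the variation among pools alone. Checked on simulated data for this comparison (19100 genes), the test recovered 96% of 100 genes changed by 1 log2 unit and 100% of 100 changed by 2, and 8.84% of calls were false. The simulated spread was scaled to the median over all genes at middle levels. The members had a median SD of 0.292, against 0.120 for all tested genes in their range. Neither the recovery nor the share of false calls therefore carries over to members with a wide spread. A member not called may still have changed, and a called one may be a false call.

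Transcript lengths and positions came from GENCODE M21, matched for all 31 members, and promoters from RefSeq. Members and lists were chosen with earlier results of these data known. Every member is named; from other lists the first-listed genes and those with small p, from gene families those called; some genes are not reported here. Krt19 and Cldn11 were chosen after their values were seen. Depth was read from the worth of 1 read, 1.28 to 1.45 normalized counts in Arid4bSCKO and 1.20 to 1.25 in control.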

Additional observations from a re-analysis of the deposited data

How the results depend on the processing

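The count of Sertoli products called lower was 9 and of those called higher 7. Without the trend of spread on level the counts were 0 lower and 2 higher, with or without robust fitting. They were also 0 and 2 by the authors' deposited FDR, where at an unadjusted p below 0.05 there were 11 lower and 7 higher. With no shrinkage 0 were called in either direction, and Serpine2 and Defb36 were at adjusted p-values of 0.0593 and 0.0584. Dropping robust fitting alone gave 14 lower and 8 higher. With the 5 remaining changes (no filter on level, at least 5 normalized counts, centring on the median, on a trend over level or on a trend over transcript length) the counts ran from 8 to 12 lower and from 6 to 7 higher. No called gene changed sign in the settings run (0). Only the centring settings alter the mean difference, so in the other settings of the test its sign was fixed. Under the authors' ratio of medians all 31 values stayed within 1 SD between pools of the mean difference. With 3 pools per group the 2 measures can hardly part by more, so this says little about stability. The causes were not tested. No paired analysis was possible because the table holds group means, and for the same reason leaving out each pool and another pseudocount were not run. Depth limits Tsx, Gata1 and Rhox5, which have few reads.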

Other observations

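Relatives of the members, taken by gene family name, were read beside them. Some beta-tubulin genes other than Tubb3 also rose. Tubb2b was at 12.25 in Arid4bSCKO and 11.40 in control (0.85, 95% interval 0.63 to 1.08, adjusted p = 6.01e-04, moderated limma), Tubb2a at 11.67 in Arid4bSCKO and 10.94 in control (0.74, 0.49 to 0.99) and Tubb4b at 13.64 in Arid4bSCKO and 13.33 in control (0.31, 0.12 to 0.49). Of 8 beta-tubulin genes, Tubb3 included, 4 were called higher and 0 lower, against 7.37% and 6.46% of all genes. Of the 8 differences 2 were negative, and the levels summed to 63697 normalized counts in Arid4bSCKO and 60312 in control. All 4 calls were lost without the trend of spread on level (adjusted p = 0.0560 for Tubb2b, 0.0763 for Tubb2a, 0.0808 for Tubb3 and 0.132 for Tubb4b, moderated limma), and 0 passed the FDR in the authors' deposited table. Tubb4b was also not called after centring on a trend over level (0.0689) or over length (0.0712).

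Among cystatins, the widely expressed Cst3 and Cstb rose, at 0.40 (0.23 to 0.57) and 0.60 (0.32 to 0.89). Of 9 cystatin genes tested 2 were called higher and 0 lower, against 7.37% and 6.46% of all genes. Without the trend of spread on level, Cst3, Cstb, Krt80 and Defb1 were not called (adjusted p = 0.0832, 0.116, 0.112 and 0.0530). Of 9 tested defensin genes 1 was called lower and 1 higher, against 6.46% and 7.37% of all genes. The higher one was Defb36. Defb1 was called lower at -2.32 (-3.50 to -1.14), with levels of 1.23 in Arid4bSCKO and 3.55 in control, where few reads were counted. Of 26 Rhox genes tested, Rhox8 was the only one called, where 6.46% of all genes fell. Of the 26 differences 18 were negative, as were those of 10346 of the 19095 genes tested. Of 37 keratin genes tested 3 were called higher and 0 lower, Krt80 (1.28, 0.54 to 2.03) with Krt8 and Krt18, a share near the 7.37% of all genes. Rhox and defensin genes have close copies, and how reads were split between them is not given in the sources used here.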
